A study of Homo sapiens with 7 samples.

Results

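T-cell receptor gene segments are the short V, D, J and C pieces from which a developing T cell assembles its antigen receptor genes. The annotation of hg19 (GENCODE 44) lists 207 of them on chromosomes 7 and 14, among 64449 genes on chromosomes 1 to 22, X and Y, and all 207 were examined in HCT116 cells. They fall into 3 loci. The TRA locus with the TRD locus nested inside it holds 128 segments (chr14:22089991-23021099, 931 kb), TRB holds 58 (chr7:141999017-142511084, 512 kb) and TRG holds 21 (chr7:38279181-38407770, 129 kb). By class there are 120 V, 4 D, 78 J and 5 C segments, and the annotation calls 31 of the 207 pseudogenes. The segments were chosen by their gene class, but the class itself was selected on measured values, because the widest H3K27me3 peak of the series was already known to lie over TRD and TRA. The H3K27me3 values at TRA/TRD are therefore a description of what led to the choice, and nothing is read from their size.

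HCT116 is an established human colorectal carcinoma line of epithelial origin. Cells were grown at 200000 per well of a 96-well plate, crosslinked and sheared for 6 min in 100 μl with the PIXUL sonicator, and 1 well was used for each antibody. The labels give the libraries no treatment or genotype and tell them apart by the antibody: H3K4me1, H3K4me3, H3K9Ac, H3K27me3, H3K36me3 or CTCF, with H3K27Ac not analysed here. Each mark has 1 library and no replicate, so no test between conditions was possible and intervals on shares (95% Wilson) cover counting error only.

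In a T cell precursor the RAG1 and RAG2 recombinase cuts at recombination signals beside V, D and J segments, and the joined exon is spliced to a C segment. In cells outside the lymphoid lineage the segments stay in germline order and are normally silent. H3K27me3 is the repressive mark placed by Polycomb repressive complex PRC2. H3K4me3 and H3K9Ac mark active promoters, H3K4me1 marks enhancers and promoter flanks, and H3K36me3 marks transcribed gene bodies. CTCF, a DNA-binding protein with zinc fingers, recognises a directional sequence and anchors chromatin loops, and it helps to fold antigen receptor loci in lymphocytes.

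The lists give each peak a fold enrichment over background and a q-value, but no read counts, so the sequencing depth behind them is unknown. A peak was counted as past the limits when its q-value was under 1e-03 and its enrichment over 2-fold (H3K4me1 and H3K27me3), or, for the other marks, under 1e-10 and over 5-fold. Other deposited peaks are named as such. The peak names inside 5 of the 6 lists carry the name HCT116, whereas 0 of the 55270 names in the H3K27me3 list do and the stem there reads HTON, so the H3K27me3 values below rest on the label. For the lists named HCT116, fixed markers of the labelled colon-derived line were read. H3K4me3 peaks lay within 1 kb of the transcription start site (TSS) of 6 of 12 colon epithelial genes (CDX2, EPCAM, CDH1, KRT8, KRT18 and HNF4A) and of 0 of 12 T cell genes, beside 59.1% of 20163 protein-coding genes, so the colon count is no higher than the background. CDX1, VIL1, KRT20 and GPA33, also on the colon list, lacked H3K4me3 peaks there. The 12 T cell genes also had 0 H3K4me1 and 0 H3K9Ac peaks there, beside 49.1% and 58.5% of protein-coding genes with one past the limits. These marks do not bear on the origin of the H3K27me3 library. CEACAM5 and LGR5, both on the colon list, had H3K27me3 peaks past the limits at their TSS, with fold enrichments of 3.95 and 4.58. Of all protein-coding genes 1.22% had one.

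The reference limits what can be seen. In hg19 the TRB locus contains 2 runs of 50000 unknown bases, and the 26 segments between them lie on the minus strand, against 8 of 8 on the plus strand before the first run and 23 of 24 after the second. TRBC1 and the TRBJ1 segments were not analysed here, because the annotation used lists TRBC2 and TRBJ2 segments only. TRBD1 ends at chr7:142494030 and TRBJ2-1 begins at chr7:142494049. The recombination signal bases are missing on their facing sides, which read TCCCTAG after TRBD1 and CCAGAAA before TRBJ2-1. Whether hg19 holds the germline order there was not tested, so values and distances at TRBD1 and the J segments describe hg19 as it stands. Reads of 75 bases map to a single place only where the sequence is unique: 98.3% of the 75-base words in TRA/TRD occurred once in hg19, 98.6% in TRB and 91.4% in TRG. Fewer than 95% of the words were unique at 18 of the 207 segments, of which 8 were among the 21 of TRG. The lowest shares were those of TRGJ1 and TRGJ2, at 24.2% each, since these J segments are near copies.

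Several sequences are shown first because the CTCF results turn on them. The CTCF core, a motif of 12 bases, was sought on both strands inside the CTCF peaks of the 3 loci, and the best match is printed in capitals with 10 bases on each side, read along the strand of the core. Coordinates are those of the core in hg19. The first set lies at the TRGV segments, where the core stands beside the start of the segment in every case:
TRGV1, chr7:38407919-38407930, minus strand: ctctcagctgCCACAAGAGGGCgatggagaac
TRGV2, chr7:38403196-38403207, minus strand: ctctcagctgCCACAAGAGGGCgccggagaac
TRGV3, chr7:38398840-38398851, minus strand: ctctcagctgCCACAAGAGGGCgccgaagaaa
TRGV4, chr7:38394052-38394063, minus strand: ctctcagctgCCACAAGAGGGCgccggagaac
TRGV5, chr7:38389686-38389697, minus strand: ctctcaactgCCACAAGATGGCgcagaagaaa
TRGV9, chr7:38358605-38358616, minus strand: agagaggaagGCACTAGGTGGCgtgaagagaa
TRGV7, chr7:38375445-38375456, plus strand: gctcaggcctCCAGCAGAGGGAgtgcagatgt
TRGV5P, chr7:38385429-38385440, plus strand: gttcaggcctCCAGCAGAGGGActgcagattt

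Between TRGV1, TRGV2, TRGV3, TRGV4 and TRGV5 the 32-base windows shared 26 to 32 bases, and TRGV2 and TRGV4 were identical. The windows of TRGV7 and TRGV5P shared 29 bases with each other, and in both the core reads on the strand opposite to the V segment.

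A second set shows one repeated element in TRB. It stands outside V segments in the inverted stretch of hg19, the last copy beyond TRBV8-1 at the end of that stretch, and 6 CTCF peaks held it, with 29 to 32 of 32 bases shared between any pair. The V segment named is the nearest one:
TRBV5-7, chr7:142115785-142115796, minus strand: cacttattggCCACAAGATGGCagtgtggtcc
TRBV5-6, chr7:142135248-142135259, minus strand: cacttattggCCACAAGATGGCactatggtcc
TRBV5-5, chr7:142153318-142153329, minus strand: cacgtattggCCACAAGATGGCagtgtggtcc
TRBV5-4, chr7:142172301-142172312, minus strand: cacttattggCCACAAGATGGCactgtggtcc
TRBV8-2, chr7:142246306-142246317, minus strand: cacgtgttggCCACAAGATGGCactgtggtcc
TRBV8-1, chr7:142273898-142273909, minus strand: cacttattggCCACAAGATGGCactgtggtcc

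A further set comes from TRA/TRD. It gives the cores just before 4 V segments, the core beside the low edge of the widest H3K27me3 peak and the core of the highest CTCF peak near the locus, beyond the 3′ end of TRAC:
TRAV5, chr14:22217276-22217287, plus strand: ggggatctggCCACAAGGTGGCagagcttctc
TRAV13-1, chr14:22336814-22336825, plus strand: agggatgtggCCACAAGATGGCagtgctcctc
TRAV13-2, chr14:22386201-22386212, plus strand: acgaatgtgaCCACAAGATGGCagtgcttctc
TRAV41, chr14:22788389-22788400, plus strand: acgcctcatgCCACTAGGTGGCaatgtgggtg
H3K27me3 edge, chr14:22855992-22856003, plus strand: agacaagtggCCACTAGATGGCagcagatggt
beyond TRAC, chr14:23026244-23026255, plus strand: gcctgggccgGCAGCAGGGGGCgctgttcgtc

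H3K27me3 peaks past the limits overlapped 63 of the 207 segments (30.4%, 95% Wilson interval 24.6 to 37%), beside 2.04% of all annotated genes. The comparison by overlap favours long genes, and the median length was 465 bp for the segments and 3192 bp for all genes. Counted by the 5′ end alone, 62 segments lay inside such a peak, beside 0.979% of all genes. The count was uneven between loci, with 60 segments in TRA/TRD, whose values led to the choice, 3 in TRB and 0 in TRG. At the limits used for CTCF, 0 segments remained under H3K27me3, so the marks are not ranked by these counts. With all deposited H3K27me3 peaks it became 125 segments, of which 104 were in TRA/TRD, 13 in TRB and 8 in TRG, beside 16.2% of all genes, and 6.68% of all genes had their 5′ end in one. The segments of a locus are neighbours under shared peaks, so these counts are not independent observations.

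**Figure D1:**
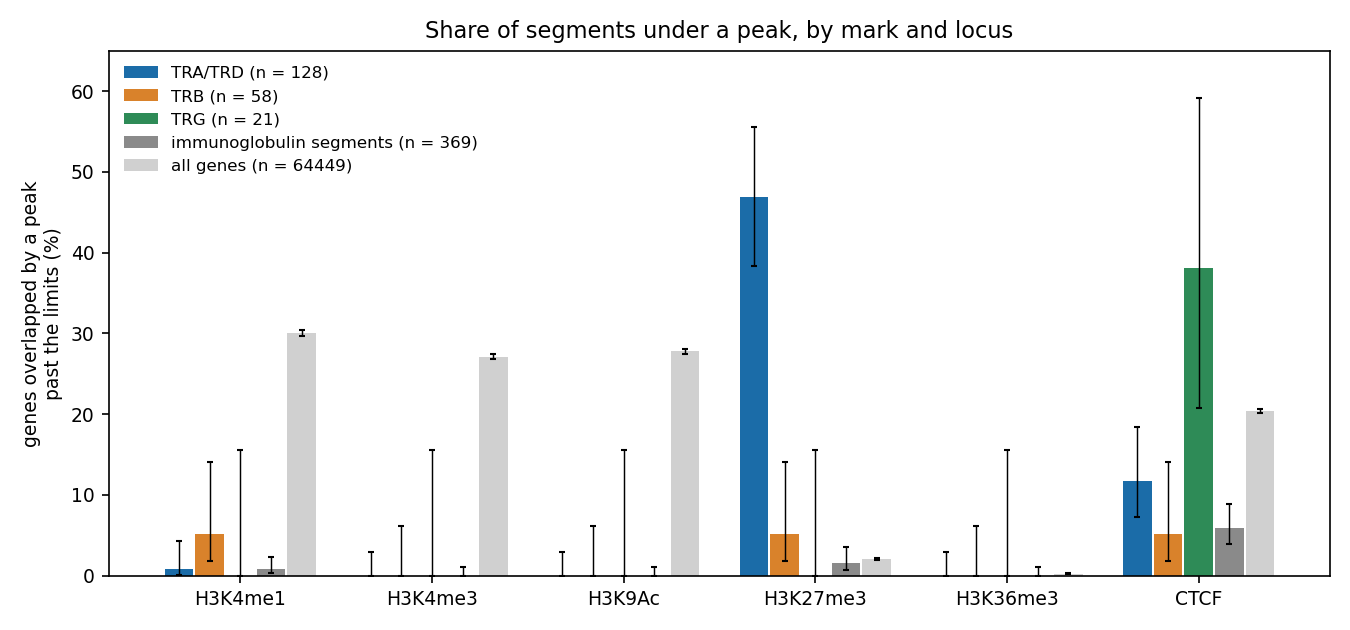
Share of genes overlapped by a peak past the limits (y axis, %) for the 6 marks (x axis), with 1 bar each for the segments of TRA/TRD, TRB and TRG, for the immunoglobulin segments and for all genes, and lines for 95% Wilson intervals, which cover counting error only. TRA/TRD stands at 46.9% for H3K27me3 and TRG at 38.1% for CTCF, whereas the bars of the 3 loci are at 0 for H3K4me3, H3K9Ac and H3K36me3.

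Within TRA/TRD, 3 H3K27me3 peaks passed the limits and together covered 18.7% of the locus, beside 0.671% of the genome. The widest, chr14:22856508-22999026, spans 142519 bp, or 15.3% of the locus, at 4.03-fold enrichment (−log10 q-value 3.41). By width it ranked 1 of 1552 H3K27me3 peaks past the limits, but by fold enrichment it ranked 492 and by q-value 716. It runs unbroken over 57 segments. It begins 34.9 kb before TRDV2, a V segment used with the delta chain, and takes in TRDD1, TRDD2 and TRDD3, the 4 TRDJ segments, the delta constant segment TRDC, and TRDV3, which lies in reverse orientation beyond TRDC. From there it continues over all segments from TRAJ61 to TRAJ15.

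The peak ends 385 bp past TRAJ15 and 252 bp before TRAJ14. The 14 segments from TRAJ14 to TRAJ1 and the alpha constant segment TRAC lay under 0 deposited H3K27me3 peaks, over 21.8 kb. Of the 61 TRAJ segments, 47 were thus inside the peak and 14 outside, while TRDC was inside and TRAC outside, 17.4 kb from its end. The stretch without H3K27me3 held the one H3K4me1 peak past the limits over a segment of TRA/TRD. That peak covered TRAJ7 (1250 bp, fold enrichment 5.75, −log10 q-value 7.74), and a deposited H3K9Ac peak below the limits overlapped it (fold enrichment 3.08, −log10 q-value 1.82).

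The recombination signals on both sides of this boundary are given because they mark the ends at which the segments are joined. Each consists of a heptamer and a nonamer, both in capitals, around a spacer in lower case of 23 bases after a V or D segment or 12 bases before a D or J segment. They are read along the strand of the segment, whose own coordinates are given:
TRAV41, 3′ side, chr14:22788620-22789123: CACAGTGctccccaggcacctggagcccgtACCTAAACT
TRDV2, 3′ side, chr14:22891362-22892033: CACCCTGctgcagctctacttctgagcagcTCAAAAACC
TRDD3, 5′ side, chr14:22918105-22918117: AGTTTTTGTaaagctctgtagCACTGTG
TRAJ15, 5′ side, chr14:22998580-22998641: GGTATTTGCagggcctcatttCACTGTG
TRAJ14, 5′ side, chr14:22999278-22999329: CATTTTTGTcaggcagcacagTGCTGTG

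The exact heptamer CACAGTG occurred in the 40 bases after 52 of 120 V segments (43.3%), and its reverse complement CACTGTG in the 40 bases before 17 of 78 J segments (21.8%). The same windows of the 63820 other genes held it in 0.461% and 0.364% of cases. Directly at the border, the first bases CAC followed 108 of 120 V segments and GTG preceded 71 of 78 J segments. The annotated 3′ ends of V segments and 5′ ends of J segments thus meet the signals at most segments. The 5′ ends of V segments, from which the CTCF distances below are counted, were not checked in this way. TRDV2 and TRAJ14 do not carry the exact heptamer.

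The other H3K27me3 peaks of TRA/TRD past the limits stand at the 3′ end of the TRAV array. One covers TRAV39 (21706 bp, fold enrichment 3.79, −log10 q-value 3.01), with TRAV38-2DV8 the nearest segment outside it on the low side. The next covers TRAV40 and TRAV41 (9724 bp, 3.95 and 3.37). The −log10 q-value limit is 3, so TRAV39 is just inside it, while TRAV10 and TRAV11, under a peak at 2.90, and TRAV4 and TRAV5, under one at 2.89, are just outside.

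Most TRAV segments were under a weaker peak. Of the 58 V segments of TRA/TRD, 5 lay under a peak past the limits, 44 only under deposited peaks and 9 under none. In the 44 the fold enrichment ran from 2.84 at TRAV26-2 to 3.71 at TRAV10 and TRAV11, with a median of 3.34, and −log10 q-values from 1.52 to 2.90. The 9 without any deposited H3K27me3 peak were TRAV6, TRAV7, TRAV8-5, TRAV8-6, TRAV8-7, TRAV9-2, TRAV17, TRAV18 and TRAV23DV6. Over the 699 kb from TRAV1-1 to TRAV41, deposited peaks numbered 65 and covered 72.9%, whereas those past the limits covered 3.95%. Over the whole locus, deposited peaks covered 72.2%, beside 7.16% of the genome. Among the 67 deposited peaks of the locus the fold enrichment ran from 2.53 to 4.03, while the widths ran from 343 to 142519 bp.

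**Figure D2:**
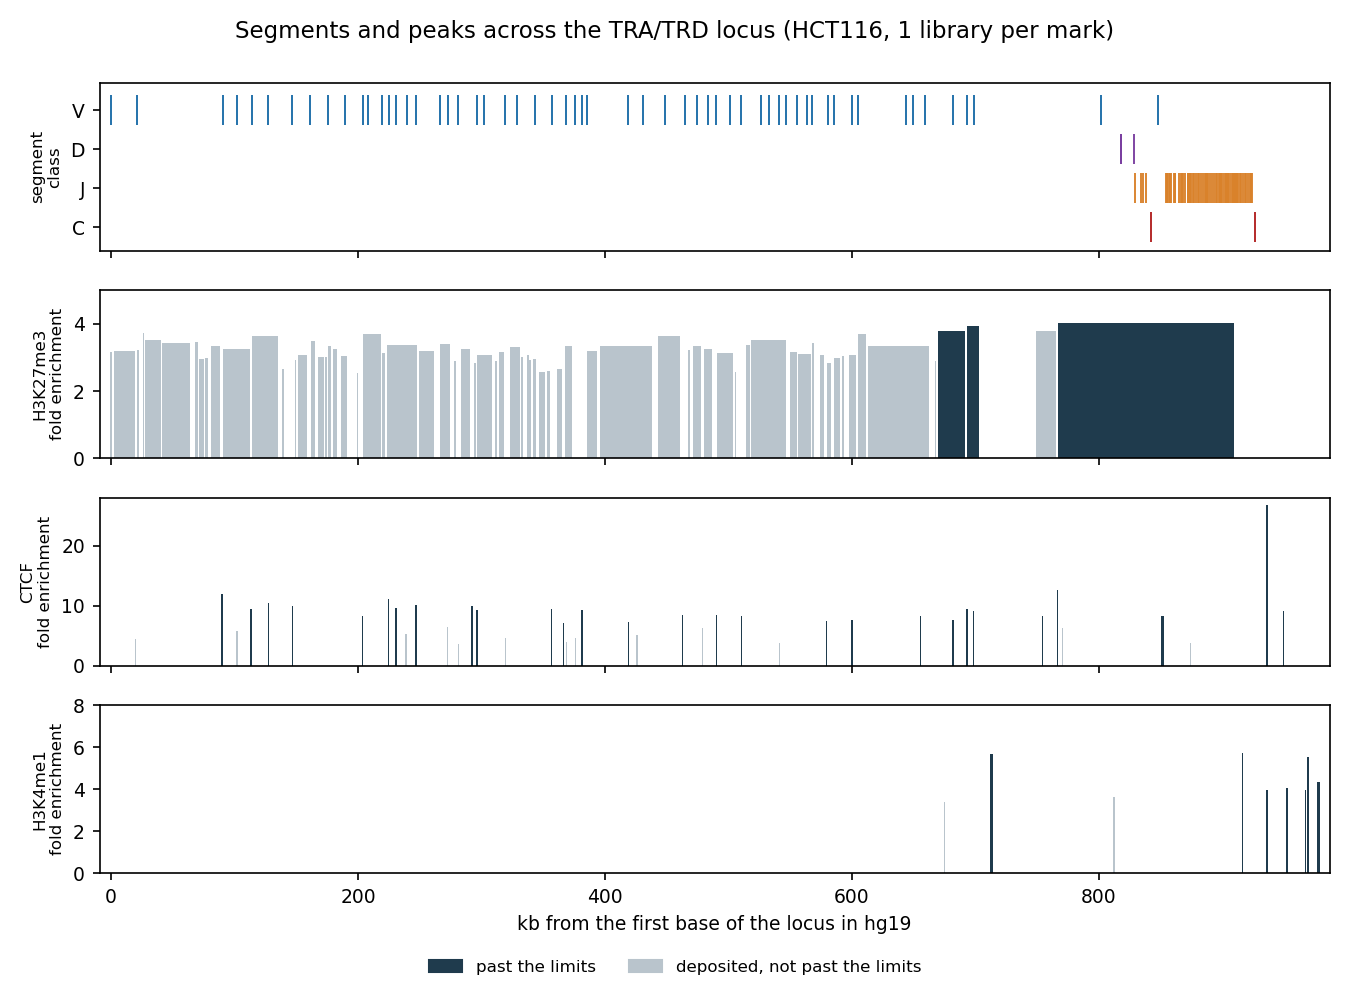
The TRA/TRD locus in kb from its first base in hg19 (x axis): ticks in the upper panel mark the first base of each V, D, J and C segment, and bars in the lower panels mark H3K27me3, CTCF and H3K4me1 peaks at their width, with the fold enrichment as height (y axis), dark where past the limits and light otherwise. The dark H3K27me3 block of 143 kb covers the D segments, TRDC and most J segments and stops short of TRAC, and CTCF peaks are spread over the V array.

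The olfactory receptor genes inside the TRAV array had the same kind of signal. OR10G2, OR4E2 and OR4E1 encode odorant receptors, and each had a deposited H3K27me3 peak at its TSS, with fold enrichments of 3.18, 3.51 and 3.43, none of them past the limits. OR10G3, the nearest protein-coding gene below the locus, had one at 3.02. On the other side of TRAC the state was different: DAD1, which encodes a subunit of the oligosaccharyltransferase and is expressed in most cells, lies 12708 bp beyond the locus and had H3K4me3 (16.6), H3K9Ac (10.7) and H3K4me1 (5.53) peaks past the limits at its TSS, with 0 H3K27me3 peaks over its body.

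TRB carried less H3K27me3. A single peak passed the limits, chr7:142344406-142357961 (13556 bp, fold enrichment 4.02, −log10 q-value 3.64), over TRBV21-1, TRBV22-1 and TRBV23-1, with TRBV20-1 and TRBV24-1 the nearest segments outside. It covered 2.65% of the locus, and all 34 deposited peaks covered 18.1%, of a length that includes the runs of unknown bases. Of these 34, 22 lay after the second run of unknown bases, 7 before the first and 5 between them. The deposited peaks below the limits reached TRBC2 (2.64), the constant segment, and TRBV30 (3.08), the V segment in reverse orientation beyond it. TRBD1 and the 8 J segments were under 0 deposited H3K27me3 peaks. PRSS1, the trypsinogen gene embedded in the locus, had a deposited peak at 3.09 over its whole body.

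**Figure D3:**
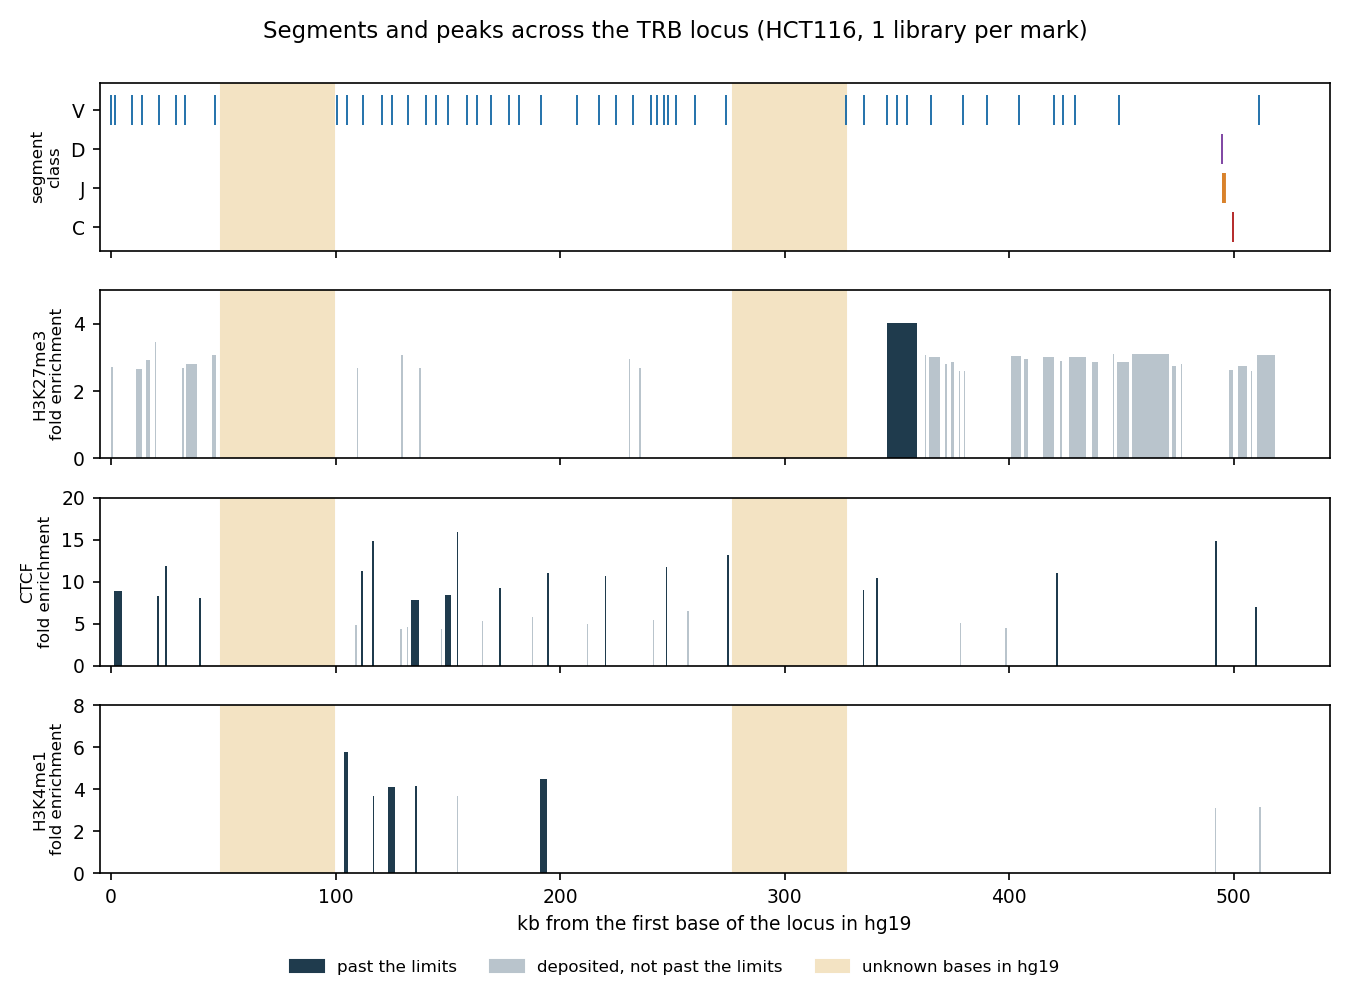
The TRB locus in kb from its first base in hg19 (x axis), drawn like TRA/TRD, with shaded bands for the 2 runs of 50000 unknown bases. CTCF peaks past the limits number 19, of which 10 stand between the bands, where 5 H3K4me1 peaks past the limits also stand, while H3K27me3 peaks are mostly to the right of the second band.

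TRG had 0 H3K27me3 peaks past the limits, and 11 deposited ones over 39.7% of the locus (51057 bp). They lay on the side of the C and J segments. The last of them ended 74.4 kb from the low end of the locus, and the first CTCF peak past the limits began at 79.1 kb, 4706 bp further on. The remaining 54.2 kb, with 11 of the 14 V segments, held 0 H3K27me3 peaks and all 8 CTCF peaks. Under the deposited H3K27me3 peaks were TRGC2 and TRGC1, the constant segments (3.16 and 3.08), TRGJ2 and TRGJP2 (3.16), TRGJ1 (3.08), TRGJP1 (3.08), and the V segments TRGVB (2.83) and TRGV10 (3.23), while TRGJP and TRGV11 lay under none. At TRGC2 the unique share of 75-base words was 87.2% and at TRGC1 85.1%, and the part of low uniqueness in the peak values was not tested.

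**Figure D4:**
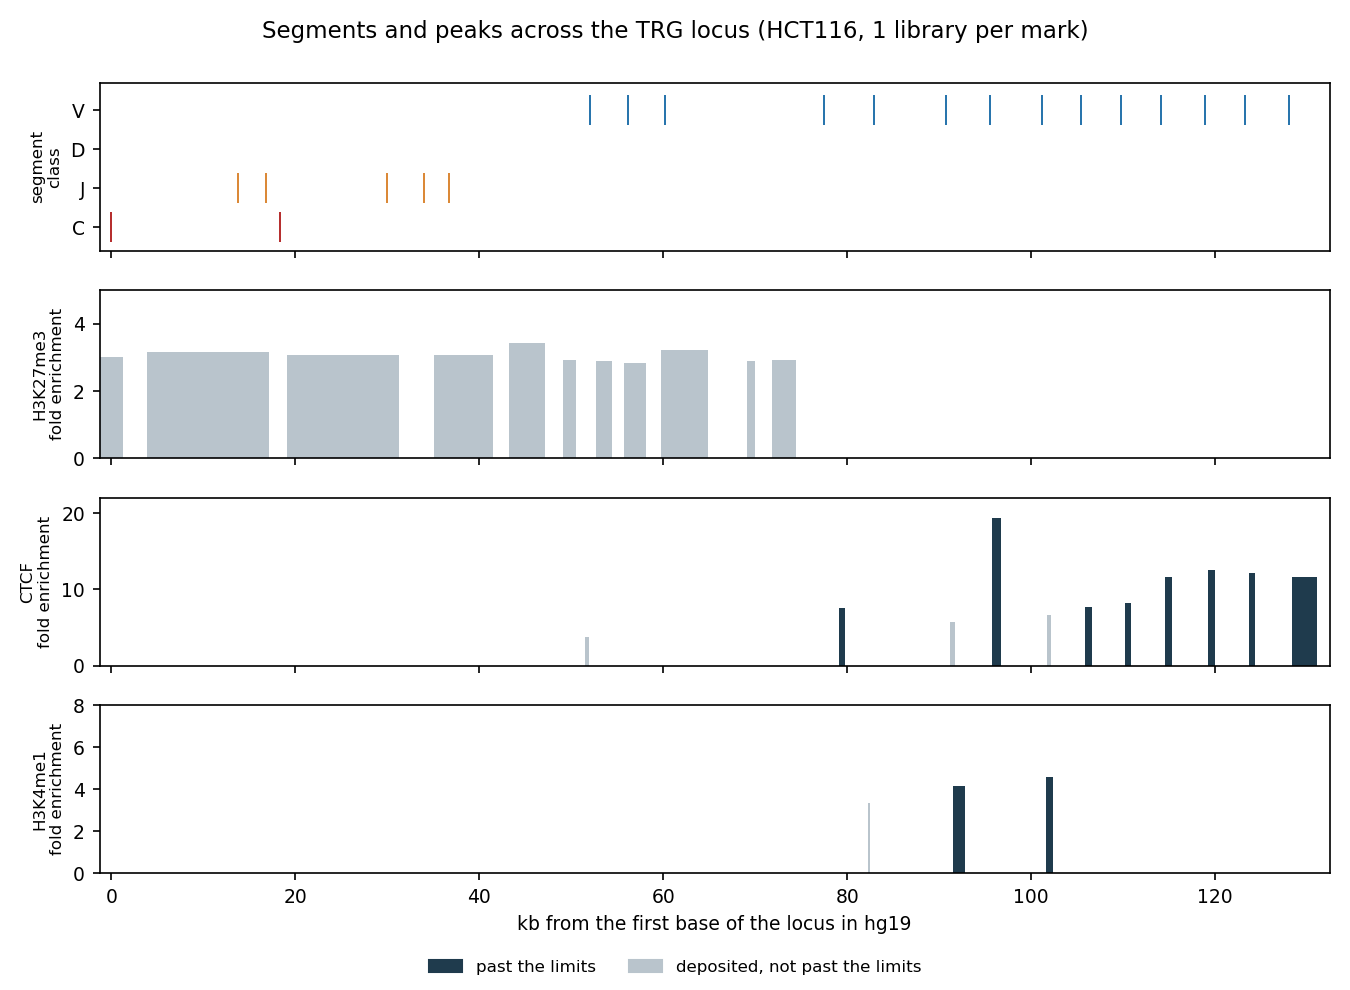
The TRG locus in kb from its first base in hg19 (x axis), drawn like TRA/TRD. The segments run from right to left. H3K27me3 peaks, all below the limits, end at 74.4 kb over the C and J segments and the nearest V segments, and the 8 CTCF peaks past the limits begin at 79.1 kb over the other V segments.

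CTCF peaks past the limits numbered 53 in the 3 loci, 26 in TRA/TRD, 19 in TRB and 8 in TRG. Per megabase that is 27.9, 37.1 and 62.2, beside 7.93 over the genome. The TRB length includes the runs of unknown bases, where no peak can be called. They overlapped 26 segments, 12.6% of the 207, beside 20.4% of all genes, which are longer. By the 5′ end alone the count was also 26 segments, beside 4.96% of all genes. Every one of the 26 was a V segment: 15 in TRA/TRD, 3 in TRB and 8 in TRG. Among the 120 V segments the share was 21.7% (95% Wilson interval 15.2 to 29.9%), and 0 of the 78 J, 4 D and 5 C segments were overlapped. TRAJ44 was the single J segment under a deposited CTCF peak, at a fold enrichment of 3.79, below the limits.

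In TRA/TRD the V segments under a CTCF peak were TRAV5, TRAV6, TRAV10, TRAV8-2, TRAV8-3, TRAV13-1, TRAV13-2, TRAV8-6, TRAV18, TRAV20, TRAV25, TRAV35, TRAV39, TRAV40 and TRAV41. Their fold enrichments ran from 7.24 at TRAV20 to 11.2 at TRAV8-2, within a narrow range around the 9.20 that was the median of the 26 peaks of the locus. The highest peak inside the locus, at 12.7, stands 164 bp before the low edge of the widest H3K27me3 peak. In TRG the fold enrichment was 11.6 at TRGV1, 12.1 at TRGV2, 12.6 at TRGV3, 11.6 at TRGV4 and 8.19 at TRGV5. TRGV7, annotated as a pseudogene, had the highest of the locus, at 19.4, and TRGV9 and TRGV5P had 7.60 and 7.72. TRGV8 lay under a deposited peak only, at 5.71.

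Of the TRG peaks, those at TRGV1 to TRGV5 span repeated sequence. The unique share of 75-base words was 87.7% under the TRGV1 peak, 84.2% under TRGV2, 71.5% under TRGV3, 79.0% under TRGV4 and 67.8% under TRGV5, so reads of one member could have been placed at another. TRGV7, TRGV5P and TRGV9 stand in more distinct sequence, with 97.9% unique under TRGV5P. The part of shared reads in the 5 values was not tested.

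TRB placed its CTCF peaks differently. Only TRBV2 (8.84), TRBV5-5 (8.40) and TRBV20-1 (9.06) lay under one, and 16 of the 19 peaks were between segments. The highest, at 15.9, has its core 3919 bp upstream of TRBV5-5 and carries the repeated element shown above, as do the peaks at 14.8, 13.2, 11.7, 9.20 and 7.85. Near the 3′ end, a peak at 14.9 has its core 2703 bp from TRBD1, and this core reads on the minus strand, whereas TRBD1 and the J segments read on the plus strand.

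Around the starts of V segments the CTCF peaks were close. Within 1 kb of the 5′ end a CTCF peak past the limits was found at 35 of 120 V segments (29.2%), namely 17 of 58 in TRA/TRD, 10 of 48 in TRB and 8 of 14 in TRG, beside 8.11% of all genes. Immunoglobulin V segments, the B cell counterparts with the same architecture on chromosomes 2, 14 and 22, had one at 31 of 299 (10.4%). By overlap, 22 of the 299 lay under a CTCF peak (7.36%, 4.91 to 10.9%), an interval below that of the T-cell receptor V segments. V segments descend from one another by duplication and are not independent, and the difference between the receptor classes was not tested. V genes and V pseudogenes both had such peaks, at 29 of 94 and 6 of 26.

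The core sequence gave the position and direction of these peaks. An exact match was present in 5 of the 53 peaks (9.43%), beside 22.4% of all CTCF peaks past the limits and 0.591% of the same intervals moved by 10000 bp. With up to 1 mismatch it was present in 40 of the 53 (75.5%), beside 65.9% and 6.92%. All 8 TRG peaks had it, with 15 of 19 in TRB and 17 of 26 in TRA/TRD. Among the peaks over V segments of TRA/TRD, those of TRAV6, TRAV10, TRAV18, TRAV25 and TRAV39 had 2 mismatches at their best match and that of TRAV35 had 3. A match to these letters is a description of the sequence and does not show where the protein sat.

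Of these 40 cores, 33 lay upstream of the nearest V segment and 21 within 1 kb upstream. In TRA/TRD all 17 were upstream, 11 of them by less than 1 kb. There the cores of TRAV8-2, TRAV8-6, TRAV20, TRAV13-2, TRAV5, TRAV13-1, TRAV41 and TRAV8-3 stood at −77, −84, −140, −156, −180, −200, −225 and −292 bp from the 5′ end of the segment (counted to the centre of the core, negative upstream). In TRG the cores of TRGV5, TRGV2, TRGV3, TRGV9 and TRGV1 stood at −69, −83, −83, −149 and −155 bp, and that of TRGV4 lay inside the segment at 60 bp. In TRB 9 of 15 were upstream, and 3 of them by less than 1 kb.

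Of the 40 cores, 35 read on the strand of the nearest V segment and 5 on the other. This counts cores far from any V, and among the 25 in peaks beside the start of a V segment that has a CTCF peak within 1 kb the count was 20, with 10 of 11 in TRA/TRD, 4 of 6 in TRB and 6 of 8 in TRG. No genome-wide share of the same measure was computed, and the direction was not tested. Over all 40 the count was 16 of 17 in TRA/TRD, with TRAV40 the exception, 13 of 15 in TRB, with the cores 984 bp past the 5′ end of TRBV5-7 and 989 bp past that of TRBV5-5 the exceptions, and 6 of 8 in TRG, with TRGV7 and TRGV5P the exceptions. In TRB the 6 copies of the repeated element read on the minus strand, like the 26 segments of the inverted stretch. The core beyond TRAC, under the peak at 26.8, reads on the plus strand like the TRA segments.

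**Figure D5:**
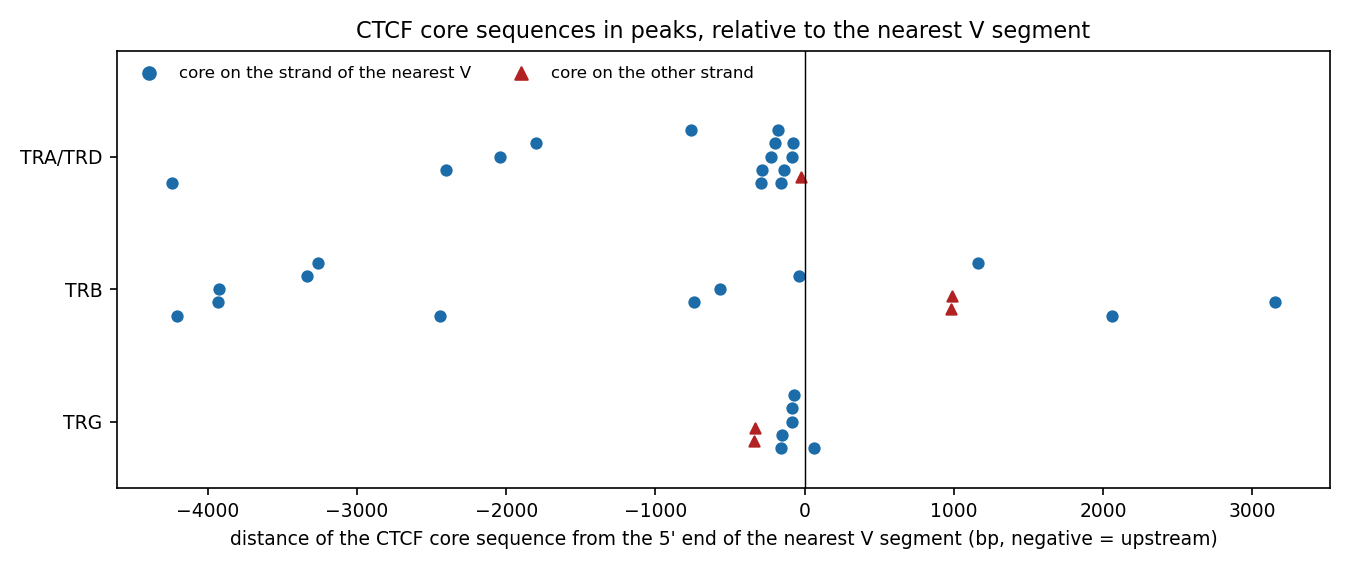
Distance of the CTCF core from the 5′ end of the nearest V segment (x axis, bp, negative upstream) for the cores with up to 1 mismatch in each locus (y axis). Circles are cores on the strand of the V segment and triangles cores on the other strand, 37 of the 40 cores are shown and 3 lie more than 5 kb away, and the height within a locus has no meaning. The TRA/TRD and TRG cores gather close to the 5′ end on the upstream side, and those of TRB are spread out.

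The core was also sought around all V segments, with or without a peak. In the window from 500 bases before to 100 after the 5′ end, a core with up to 1 mismatch was present at 19 of the 35 V segments with a CTCF peak within 1 kb and at 5 of the 85 without, beside 6.43% of 63820 other genes. By locus the counts with and without a peak were 10 of 17 and 4 of 41 in TRA/TRD, 1 of 10 and 1 of 38 in TRB, and 8 of 8 and 0 of 6 in TRG, so the window held the core at few V segments of TRB in either case. The window was chosen after values of these data had been seen, so the counts are not a separate check of the core positions above. No difference was tested.

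Few CTCF peaks stood inside H3K27me3 peaks. The centre of 11 of the 53 CTCF peaks (20.8%, 95% Wilson interval 12 to 33.5%) lay inside a deposited H3K27me3 peak, while these covered 51.9% of the 3 loci. In TRA/TRD the count was 11 of 26 with 72.2% covered, in TRB 0 of 19 with 18.1% and in TRG 0 of 8 with 39.7%. The TRB share is of a length that includes the runs of unknown bases. Over the genome 3.03% of CTCF peaks had their centre in deposited H3K27me3, which covers 7.16%, so the share was below the coverage there too, and no difference was tested.

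At the peaks of H3K27me3 past the limits, the CTCF peak over TRAV40 (chr14:22782527-22783183, fold enrichment 9.38) fills part of the gap between the peaks of TRAV39 and TRAV40, 780 bp from one and 57 bp from the other. The peak before TRDV2 ends 164 bp from the widest domain. Thus 3 of the 8 edges in the loci were within 1 kb of a CTCF peak, beside 8.96% of the 3104 edges of all H3K27me3 peaks past the limits. The edges on either side of the TRAV39 to TRAV40 gap meet the same CTCF peak. CTCF peaks are also denser in TRA/TRD, at 27.9 per megabase beside 7.93 over the genome, so nothing is read from the count. The high edge of the widest domain, between TRAJ15 and TRAJ14, was 26637 bp from the nearest one, which is the peak beyond TRAC. The overlap of the other marks with that peak was 1 H3K4me1 peak past the limits (3.96).

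Of the 9 V segments of TRA/TRD without deposited H3K27me3, 4 had a CTCF peak past the limits within 1 kb of the 5′ end, TRAV6, TRAV8-6, TRAV18 and TRAV8-7. The counts were 10 of the 44 with deposited peaks only and 3 of the 5 under peaks past the limits. Together these are the 17 of 58 of the locus, beside 8.11% of all genes. The groups are small, neighbouring segments share H3K27me3 peaks, and no difference was tested.

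H3K4me1 marked few segments, which are shorter than most genes. Per megabase its peaks past the limits numbered 2.15 in TRA/TRD, 9.76 in TRB and 15.6 in TRG, beside 10.4 over the genome. Peaks past the limits overlapped 4 of 207 (1.93%, 95% Wilson interval 0.754 to 4.86%), beside 30.0% of all genes, and the 5′ ends of 3, beside 16.8%. Besides TRAJ7 these were TRBV6-9 (fold enrichment 5.80), TRBV6-8 (4.12) and TRBV12-2 (4.47), all in the inverted stretch of TRB. TRBV6-9 and TRBV6-8 had 91.3% unique words each. A further 5 H3K4me1 peaks past the limits lay between segments. One stands 12413 bp beyond TRAV41 (2346 bp, 5.68), 2 in TRB beside TRBV5-7 and TRBV5-6 (3.69 and 4.18), and 2 in TRG, 105 bp from TRGV8 (4.18) and 187 bp from TRGV6 (4.57). The 2 TRB peaks between segments each overlapped a CTCF peak with the repeated element. They were the only ones of the 9 H3K4me1 peaks in the loci that overlapped a CTCF peak (22.2%), beside 19.9% over the genome.

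Of the 9 H3K4me1 peaks in the loci, 7 overlapped a deposited H3K9Ac peak, 0 overlapped one past the limits, 0 overlapped H3K4me3 and 0 overlapped deposited H3K27me3. Over the genome the shares were 78.6%, 36.7%, 34.6% and 4.69%. The deposited H3K9Ac peaks in the loci numbered 10, with fold enrichments from 2.68 to 3.62, and touched only TRAJ7 and TRBV12-2 among the segments. One is at TRGV6 (3.62), 50 bp from the segment, and another 2842 bp from TRBD1 (3.06).

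H3K4me3, H3K9Ac and H3K36me3 peaks past the limits overlapped 0 of 207 segments. The shares of all genes were 27.1% for H3K4me3, 27.8% for H3K9Ac and 0.261% for H3K36me3, of which 90 peaks in the whole list passed the limits, so nothing is read from the 0 for H3K36me3. Deposited peaks overlapped 0 segments for H3K4me3, 2 for H3K9Ac and 0 for H3K36me3, beside 29.5%, 35.1% and 27.1% of all genes, which are longer. The nearest H3K4me3 peaks past the limits were 35.9 kb above TRA/TRD, at DAD1, 40.4 kb above TRB, at EPHB6, an ephrin receptor gene (21.0), and 60.3 kb below TRG, at STARD3NL, which encodes a late endosomal protein (14.7). On the other sides they were 110, 559 and 540 kb away. EPHB6 and STARD3NL had H3K9Ac peaks past the limits, at 13.8 and 9.03. TARP, the coding gene annotated within TRG, had 0 peaks of any mark at its TSS, while deposited H3K27me3 peaks, none of them past the limits, covered 80% of its body.

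The genes that T cells need to rearrange and use these segments were read at their TSS from fixed lists. Of 16 genes of the receptor complex and its signalling, 1 had an H3K4me3 peak past the limits within 1 kb of the TSS, beside 59.1% of protein-coding genes. It was FYN, a Src family kinase also used outside T cells (fold enrichment 25.9), which also had H3K9Ac and H3K4me1 peaks, beside 58.5% and 49.1%. CD3D, CD3E, CD3G and CD247, which encode the invariant signalling chains, and LCK and ZAP70, the kinases that act on them, had 0 such peaks. No gene of the list had an H3K27me3 peak past the limits at its TSS, beside 1.22%, and deposited ones, found at 9.60% of protein-coding TSS, included those at CD3E (2.83) and LCP2 (3.50). LCP2, which encodes an adaptor protein, had 82.3% of its body under deposited peaks and overlapped one past the limits, beside 2.04% of all annotated genes. CTCF and H3K36me3 peaks past the limits were at 0 of the 16 TSS, beside 13.6% and 0.298%.

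Of 14 genes of V(D)J recombination, 11 had H3K4me3 and H3K9Ac peaks past the limits at the TSS, beside 59.1% and 58.5%. These were the DNA binding and end joining genes of the list, among them HMGB1, HMGB2, XRCC5, XRCC6 and PRKDC. The 3 without were RAG1 and RAG2, the recombinase, and DNTT, the terminal transferase that adds bases at junctions, all of them lymphoid. Deposited H3K27me3 peaks, 0 of them past the limits, were at the TSS of 2 of the 14, RAG1 (3.57) and DNTT (2.65), beside 9.60% of protein-coding genes. The bodies of RAG1 and RAG2 both overlapped a peak past the limits, beside 2.04% of all annotated genes. Nothing is read from these small counts.

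Of 12 T lineage transcription factors, 7 had H3K4me3 peaks past the limits at the TSS, among them GATA3, TCF7, BCL11B and RUNX3, a share near the background of 59.1%. Deposited H3K27me3 peaks, 0 of them past the limits, were at the TSS of 6 of the 12, beside 9.60% of protein-coding genes: GATA3 (2.79), LEF1 (3.05), BCL11B (3.60), ETS1 (3.69), TBX21 (3.37) and MYB (3.63). All 7 Polycomb genes (EZH2, EZH1, EED, SUZ12, RBBP4, RBBP7 and JARID2), which encode the complexes that place H3K27me3, had H3K4me3, H3K9Ac and H3K4me1 peaks past the limits at the TSS. The shares of protein-coding genes were 59.1%, 58.5% and 49.1%. EZH1 also had a deposited H3K27me3 peak (2.71).

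Immunoglobulin segments, from which B cells assemble antibody genes, are given for comparison, and no difference was tested. Of 369 on chromosomes 2, 14 and 22, 6 lay under an H3K27me3 peak past the limits (1.63%, 0.747 to 3.50%) and 78 under a deposited one (21.1%), while the T-cell receptor shares by locus were 46.9% and 81.2% in TRA/TRD, 5.17% and 22.4% in TRB, and 0 and 38.1% in TRG. The TRA/TRD values led to the choice, and 57 of its segments lay under 1 peak, so they are not read against the immunoglobulin shares. For the immunoglobulin segments the share past the limits was 2.06% on chromosome 2, 0 on chromosome 14 and 4.17% on chromosome 22. The deposited share was 47.4% of 97 on chromosome 2, 3.41% of 176 on chromosome 14 and 27.1% of 96 on chromosome 22. The deposited shares of TRB and TRG lie within this range. Past the limits, TRB stood above the share of chromosome 22 and TRG at 0. CTCF peaks past the limits overlapped 22 (5.96%) and H3K4me1 peaks 3 (0.813%). H3K4me3, H3K9Ac and H3K36me3 peaks past the limits overlapped 0, as they did at the T-cell receptor segments.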

How the data were processed

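PIXUL-ChIP-seq of HCT116 cells was read from 6 peak lists, 1 per antibody. The members and the gene lists were chosen with earlier results of these data known. Reads were aligned by the authors to hg19 with BWA 0.7.12, and peaks of each library were called by MACS2 in broad mode (cutoff 0.1). The submitters' processing notes name MACS 1.4.2, SAMtools 0.1.19 and bcl2fastq 2.20.0.442. The authors deposited 1 fold enrichment per peak, a linear ratio to background. They also deposited a −log10 p-value with a −log10 q-value, and all of these describe a whole peak. The lists include peaks outside the limits of the Methods, so those limits were applied. The Methods do not name a group for CTCF, which was treated like H3K4me3. Reads are described as paired in one source and single in another. Depth is unknown, and a deeper library can give more and wider peaks.

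Genes with a T-cell receptor class were taken from GENCODE 44 on hg19, and 8 such genes on other chromosomes were not used. Overlap required 1 bp. Words of 75 bases were counted over both strands of hg19. The CTCF core was sought on both strands of peaks and windows, and the heptamer along the strand of each segment. The segments named were the C segments, those at the edges of H3K27me3 peaks, those under peaks of other marks and those at the highest peaks, with neighbouring coding genes and, from the fixed lists, genes with H3K27me3 at the TSS and up to 5 others, of which 1 is not reported here. Other names were chosen after their values were seen, and the window around V starts was too. No test was run. Overlaps were tested on simulated data (600 of 600 recovered) and checked against bedtools 2.31.1, and 0 of 12 lists differed. Python 3.11.15, numpy 2.4.6, pandas 2.3.3, scipy 1.17.1, numba 0.67.0 and matplotlib 3.10.9 were used.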

Additional observations from a re-analysis of the deposited data

How the results depend on the processing

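Of 101 recomputed values, 74 stayed within 1.5 times the reported one and 27 did not. With all deposited peaks, the segments under H3K27me3 rose from 63 to 125 (TRA/TRD 104, TRB 13, TRG 8), those under H3K9Ac from 0 to 2, and the length under H3K27me3 to 673 kb in TRA/TRD, 92.7 kb in TRB and 51.1 kb in TRG. The peaks in the loci became 15 for H3K4me1, 10 for H3K9Ac, 112 for H3K27me3 and 80 for CTCF. Genes with H3K27me3 at the TSS became 3 on the receptor complex list, 2 on the V(D)J list, 6 among T lineage factors, 1 among Polycomb genes and 1 among T cell markers. With the stricter limits that belong to the other group of marks, H3K27me3 and H3K4me1 fell to 0 segments, 0 peaks and 0 kb, since none of these peaks passes them. With at least 50% of a segment required, CTCF fell from 26 to 6 segments. Allowing 1 mismatch raised the peaks with a core from 5 to 40. An alternative chosen after seeing the data, a q-value below 0.01 with a fold enrichment above 2, gave 89 H3K27me3 segments in TRA/TRD, 3 in TRB and 0 in TRG. No paired analysis was possible because only 1 library was made per antibody. The H3K27me3 counts depend on the limits, and no peak list shows how depth would move them.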
